A study of Mus musculus with 18 samples.

Results

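The 10 genes described here encode NF-kB and its inhibitors: the subunit genes Nfkb1, Nfkb2, Rel, Rela and Relb, and the inhibitor and modulator genes Nfkbia, Nfkbib, Nfkbie, Nfkbiz and Bcl3. They were chosen by gene symbol from the 55573 genes of a count table of mouse macrophages. All 10 had enough counts to be tested. The cells were sorted on F4/80 and CD11b from the peritoneal lavage of C57BL/6 mice that carried floxed Zeb1 alleles in every group. Zeb1 f/f mice served as controls (Zeb1 WT), and mice that also carried LysM-Cre, which drives the recombinase from the Lyz2 locus in myeloid cells, were the model of Zeb1 deletion in those cells (Zeb1 ∆M). Each genotype was given 1 dose of LPS after vehicle (LPS), 2 doses of LPS on successive days (LPS + LPS) or Metformin before LPS (Metformin + LPS). Every one of the 6 groups had 3 libraries, and each library came from a pool of 2 to 3 mice. The age and sex of the mice used for RNA-seq were not given in the sources used here.

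NF-kB is a family of dimeric transcription factors that carries signals from Toll-like and cytokine receptors to inflammatory genes. In resting macrophages the dimers are held in the cytoplasm by IkB proteins, and LPS triggers the IKK kinases to mark those inhibitors for destruction. Many of the genes that NF-kB then induces encode its own subunits and inhibitors, so the pathway is built from feedback loops. Macrophages that meet LPS repeatedly induce many inflammatory genes less, a state known as endotoxin tolerance, and NF-kB dimers that lack an activation domain are part of the textbook account of it. Nfkb1 and Nfkb2 encode the precursors p105 and p100, which give rise to p50 and p52, whereas Rela (p65), Rel (c-Rel) and Relb carry an activation domain. Nfkbia, Nfkbib and Nfkbie encode the cytoplasmic inhibitors IkB alpha, beta and epsilon. Nfkbiz (IkB zeta) and Bcl3 encode nuclear IkB proteins that bind p50 or p52 on DNA and modify transcription there.

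The genes are spread over 7 chromosomes (GRCm38 coordinates, GENCODE M21, 1-based). Among the subunit genes, Nfkb1 (ENSMUSG00000028163.17) lies at chr3:135584655-135691547 on the minus strand and Nfkb2 (ENSMUSG00000025225.15) at chr19:46304320-46312385 on the plus strand. Rel (ENSMUSG00000020275.9) spans chr11:23736847-23770970, minus strand, Rela (ENSMUSG00000024927.8) chr19:5637483-5648130, plus strand, and Relb (ENSMUSG00000002983.17) chr7:19606217-19629438, minus strand. Of the inhibitor genes, Nfkbia (ENSMUSG00000021025.8) spans chr12:55489410-55492647, minus strand, Nfkbib (ENSMUSG00000030595.15) chr7:28758251-28767512, minus strand, and Nfkbie (ENSMUSG00000023947.8) chr17:45555703-45563169, plus strand. Nfkbiz (ENSMUSG00000035356.17) is at chr16:55811375-55838899 and Bcl3 (ENSMUSG00000053175.17) at chr7:19808462-19822770, both on the minus strand. Exons of Nfkbib overlap exons of Sirt2 on the opposite strand, which held 468 to 3863 counts a library, and exons of Nfkb2 overlap those of the antisense gene AC114539.1, with 45 to 249 counts. The libraries were made with a stranded kit, but the strand setting of the counting was not given in the sources used here. Whether the counting kept the reads of these pairs apart is therefore not known.

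Because NF-kB feeds back on its own genes through kappaB sites, the promoters were searched for such letters. RefSeq promoter windows (GRCm38.p6), which run from 250 bases before a gene start to 50 after it, were matched by symbol for 7 of the 10 genes, in 9 windows. The kappaB consensus, on either strand, was present in windows of Bcl3, Rel, Nfkbia, Nfkbie and Nfkb2, and in 8.46% of all 32851 windows of the same length. No match was found in the windows of Nfkbib and Rela. A stretch around 1 match of each gene is shown 5′ to 3′ on the strand of the gene, with the matching bases in capitals, since these are the genes of the family whose transcripts are followed below. The shown match of Nfkbia lies at chr12:55492667-55492676, that of Rel at chr11:23771051-23771061 and that of Nfkbie at chr17:45555594-45555603, all outside the annotated gene, while those of Bcl3 (chr7:19822744-19822753) and Nfkb2 (chr19:46305705-46305714) fall in an annotated exon. Further matches of Nfkb2, at chr19:46304698-46304735 in an exon and at chr19:46305459-46305468 within the gene but outside its exons, are not printed.
Nfkbia, chr12:55492647-55492711, minus strand: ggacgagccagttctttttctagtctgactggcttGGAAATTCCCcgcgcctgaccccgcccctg
Rel, chr11:23771031-23771096, minus strand: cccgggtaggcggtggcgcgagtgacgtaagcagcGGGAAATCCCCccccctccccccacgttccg
Nfkbie, chr17:45555559-45555623, plus strand: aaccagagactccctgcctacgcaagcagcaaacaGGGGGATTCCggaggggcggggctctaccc
Bcl3, chr7:19822734-19822763, minus strand: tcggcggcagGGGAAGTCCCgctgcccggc
Nfkb2, chr19:46305695-46305724, plus strand: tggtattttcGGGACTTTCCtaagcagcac
A match describes the letters only and is not evidence that NF-kB binds there in these cells.

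Total counts ran from 14053706 to 30570439 a library. Zeb1 was lower in each Zeb1 ∆M library than in every Zeb1 WT library of LPS (1.38 to 3.01 against 6.41 to 7.21 CPM, counts scaled to library size with TMM factors) and of Metformin + LPS (3.92 to 4.79 against 12.3 to 12.9), but in LPS + LPS it stood at 0.738 to 2.52 CPM in both genotypes and the ranges overlapped. F4/80 (Adgre1) was present at 1738 to 4938 CPM in all libraries. Markers of large peritoneal macrophages, the resident cells of the cavity, summed to 11882 to 16508 CPM in LPS and 2562 to 6655 in LPS + LPS, whereas T and NK cell, mast cell and mesothelial markers summed to at most 10.8 CPM in every library. These are bulk samples, in which fewer cells of a type and less RNA per cell cannot be told apart. The TMM factors, which correct library totals for shifts in composition, were 0.867 to 1.06 in LPS, 1.42 to 1.56 in LPS + LPS and 0.445 to 0.879 in Metformin + LPS. Library totals alone would therefore shift the median gene by up to -1.51 on the log2 scale, and all differences below are read against the median gene. The Metformin + LPS libraries also carry another series of library codes in the labels, so Metformin and that series cannot be told apart, while both genotypes of a treatment share a series. For Bcl3 and for 98 of 6646 well-expressed genes, replicate 3 of Zeb1 WT LPS and replicate 1 of Zeb1 WT LPS + LPS stood above both other libraries of their groups by more than 1 on the log2 scale. Apart from tests of whether the genotypes responded differently, tested differences of Bcl3 that involve these groups are given with and without these libraries.

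Nfkbia was the most abundant transcript of the family, and the LPS + LPS groups held the lowest mean levels of every member except Bcl3. Per kilobase of exon, the mean level in Zeb1 WT LPS was 1953 CPM for Nfkbia, followed by Nfkbib (128), Nfkbiz (115), Rela (93.1), Nfkb2 (64.9), Nfkbie (61.0), Bcl3 (44.1), Relb (33.0), Rel (11.3) and Nfkb1 (9.10). Bcl3 stood at 19.2, 40.4 and 268 CPM in those libraries (SD 55.8 CPM per kilobase), so its place in this order rests on replicate 3. Across the 18 libraries Bcl3 spanned the widest range, 21.2-fold from lowest to highest, and Relb the narrowest, 3.40-fold. The other members spanned 4.50-fold (Nfkbie) to 9.64-fold (Nfkb1). In the order of group means, the LPS + LPS groups were the lowest pair for 9 members, and for Relb each group overlapped its neighbour in that order throughout.

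**Figure D1:**
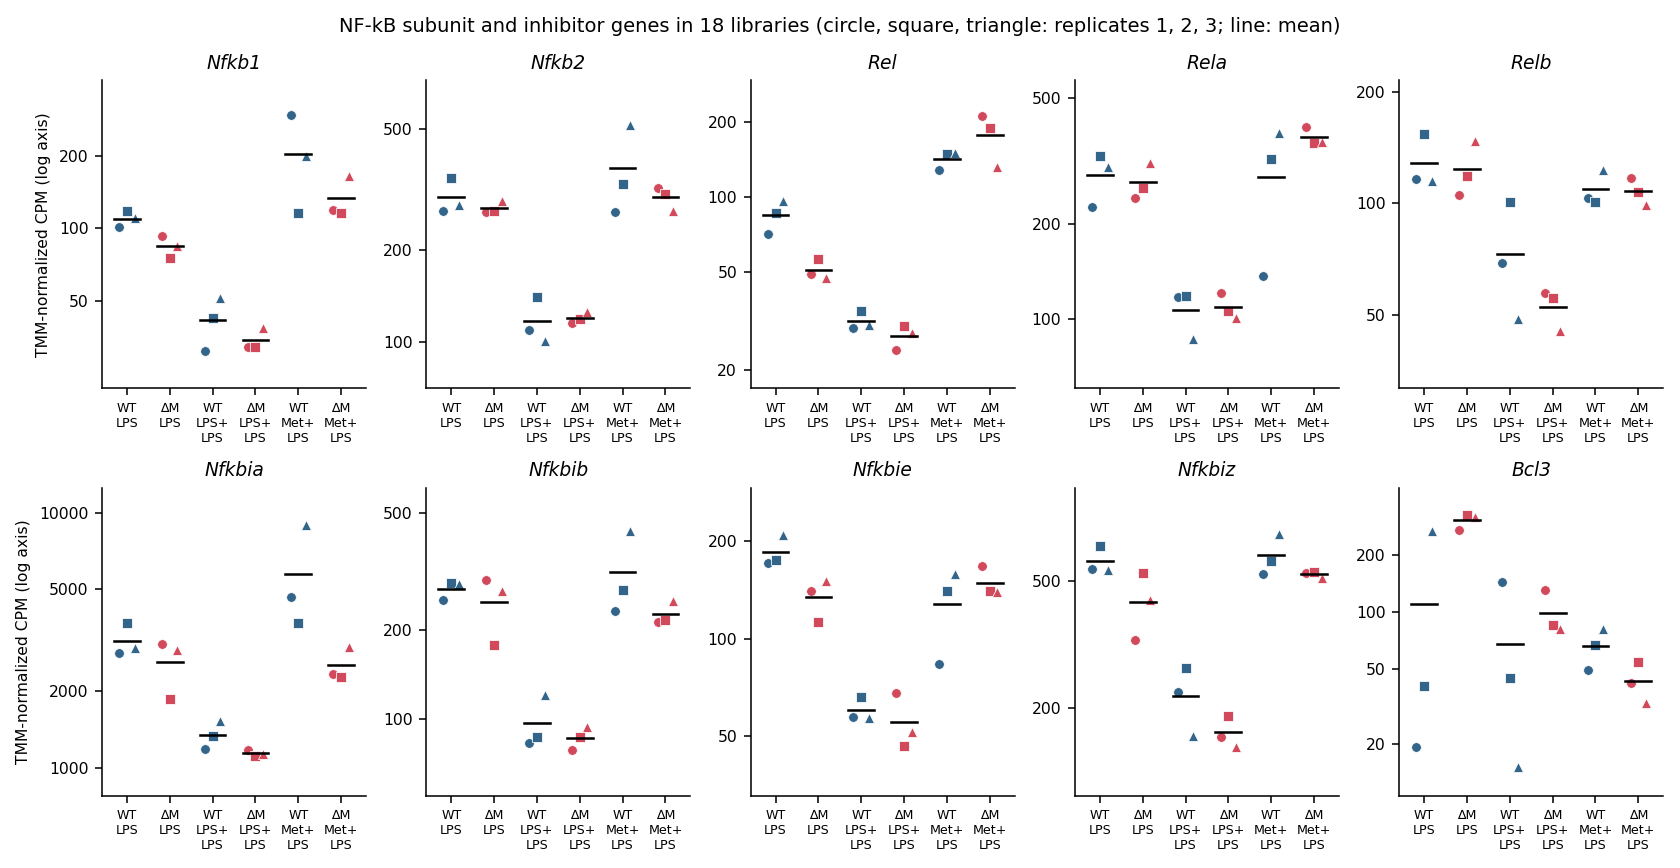
Level of each of the 10 genes in every library, as TMM-normalized CPM on a log axis, by treatment and genotype; each point is 1 library and each bar the mean of 3. For 9 genes the means of the LPS + LPS groups are the lowest pair, whereas Bcl3 ranges from 15.2 to 323 CPM and is split within Zeb1 WT LPS.

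After a second dose of LPS, 9 of the 10 members were lower than after a single dose in both genotypes, subunits and inhibitors alike. In Zeb1 WT, 9 fell in LPS + LPS against LPS at an edgeR adjusted p under 0.05, where 18% of all 13443 genes tested fell. In Zeb1 ∆M the same 9 genes fell, where 16.9% of all genes did. The median log2 fold change of the 10 members was -1.41 in Zeb1 WT and -1.29 in Zeb1 ∆M, against 0.08 and 0.01 for all genes. None of the 9 had overlapping groups in either genotype, which held in the lower direction for 22.6% and 24.8% of all genes. With library totals alone each difference kept its direction, while the median gene stood at 0.73 and 0.59, and 8 members were called in each genotype: Relb was lost in Zeb1 WT (-0.14, edgeR adjusted p = 0.65) and Rel in Zeb1 ∆M (-0.30, edgeR adjusted p = 0.289). In that fit 1176 and 944 of all 13443 genes were called lower.

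Among the subunits, Nfkb1 stood at 101, 118 and 110.2 CPM in the 3 Zeb1 WT LPS libraries and 30.7, 42.3 and 51.3 in LPS + LPS. Each LPS + LPS library thus lay below the lowest LPS library, and the log2 fold change was -1.41, 95% confidence interval -1.96 to -0.85, edgeR adjusted p = 0.000404. In Zeb1 ∆M it went from 93.1, 75.1 and 84.7 to 32.0, 32.0 and 38.3 CPM (-1.31, 95% confidence interval -1.86 to -0.75, edgeR adjusted p = 0.000927). Rela, the main activating subunit, stood at 227, 328 and 303 CPM in Zeb1 WT LPS and 117, 118 and 86.4 in LPS + LPS (-1.42, 95% confidence interval -1.99 to -0.84, edgeR adjusted p = 0.00052). Nfkb2 fell too, by 1.35 in Zeb1 WT and 1.20 in Zeb1 ∆M on the log2 scale. Rel, which encodes the lymphoid and myeloid subunit c-Rel, fell from 71.2, 86.1 and 96.7 to 29.6, 34.8 and 30.5 CPM in Zeb1 WT (-1.42, 95% confidence interval -1.80 to -1.04, edgeR adjusted p = 8.1e-06). In Zeb1 ∆M it started lower, at 49.0, 56.2 and 47.2, and reached 24.1, 30.1 and 28.2 (-0.89, 95% confidence interval -1.27 to -0.51, edgeR adjusted p = 0.00101). The difference between these drops was 0.53, 95% confidence interval -0.00 to 1.07, edgeR adjusted p = 0.712, which did not pass. Relb, the activating partner of p52, had the smallest fall in Zeb1 WT, from 116, 153 and 115 to 68.9, 101 and 48.6 CPM (-0.82, 95% confidence interval -1.28 to -0.35, edgeR adjusted p = 0.00716). That call did not hold when replicate 2 of Zeb1 WT LPS was left out (-0.65, edgeR adjusted p = 0.0525) or with library totals alone.

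The cytoplasmic inhibitors fell as well. Nfkbia stood at 2807, 3681 and 2944 CPM in Zeb1 WT LPS and 1186, 1326 and 1527 in LPS + LPS (-1.22, 95% confidence interval -1.82 to -0.63, edgeR adjusted p = 0.00227). In Zeb1 ∆M the values were 3063, 1863 and 2884 and then 1175, 1106 and 1127 (-1.20, 95% confidence interval -1.79 to -0.61, edgeR adjusted p = 0.00313), so no library overlapped between treatments in either genotype. Nfkbie had the largest fall of the family in Zeb1 WT, from 172, 176 and 209 to 57.3, 65.7 and 56.6 CPM (-1.63, 95% confidence interval -2.09 to -1.18, edgeR adjusted p = 1.21e-05), and fell by 1.28 in Zeb1 ∆M. Nfkbib, whose exons overlap those of Sirt2 on the opposite strand, fell by 1.52 and 1.53. The nuclear modulator Nfkbiz went from 547, 647 and 543 to 225, 266 and 163 CPM in Zeb1 WT (-1.41, 95% confidence interval -1.85 to -0.97, edgeR adjusted p = 3.78e-05) and fell by 1.37 in Zeb1 ∆M. Bcl3 was the sole member that did not pass, with -0.69, 95% confidence interval -2.19 to 0.80, edgeR adjusted p = 0.478 in Zeb1 WT, and -1.62, 95% confidence interval -3.15 to -0.10, edgeR adjusted p = 0.0955 in Zeb1 ∆M. In Zeb1 ∆M its LPS + LPS libraries (129.6, 85.3 and 80.6 CPM) nevertheless all lay below its LPS libraries (271, 323 and 317 CPM). A fit of only these groups called that fall of Bcl3 (-1.59, edgeR adjusted p = 0.000241).

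Cell type markers moved with the second dose as well. Of the 10 markers of large peritoneal macrophages tested in Zeb1 WT, 8 fell. The sum of 10 neutrophil markers was 726 to 1001 CPM in Zeb1 WT LPS and 967 to 3907 in LPS + LPS, and that of 6 dendritic cell markers was 471 to 825 and 7.1 to 19.4. In Zeb1 ∆M the neutrophil sum was 593 to 711 and 838 to 1527. The part of these shifts in the fall of the NF-kB genes was not tested.

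**Figure D2:**
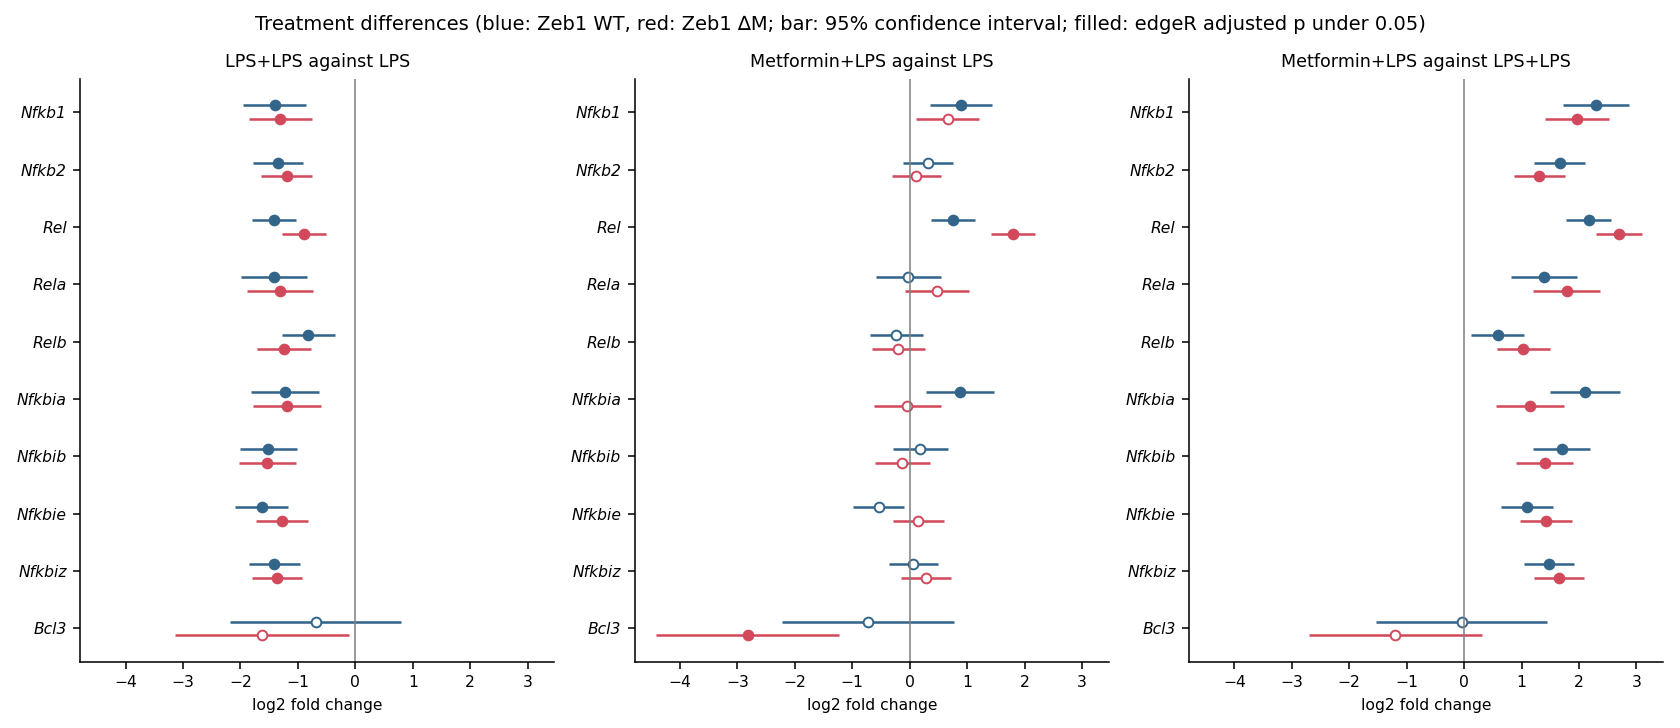
Log2 fold change of each gene between treatments, with 95% confidence intervals, in Zeb1 WT (blue) and Zeb1 ∆M (red); filled points have an edgeR adjusted p under 0.05. In LPS + LPS against LPS all 10 genes lie left of 0 in both genotypes and 9 are filled, and in Metformin + LPS against LPS only Rel is filled in both; with library totals in place of TMM the sign changes for Relb and Nfkbie in Metformin + LPS against LPS + LPS in Zeb1 WT, and in Metformin + LPS against LPS for Nfkb2, Nfkbib and Nfkbiz in Zeb1 WT and Nfkb2 and Nfkbie in Zeb1 ∆M.

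The wider pathway was followed with 3 further lists. Of 20 kinases and adaptors upstream of IkB, 9 fell and 2 rose with the second dose in Zeb1 WT (median log2 fold change -0.65), and 7 fell and none rose in Zeb1 ∆M (median -0.36). Birc2, an E3 ligase on the TNF receptor path, went from 134 ± 11.4 to 21.5 ± 2.65 CPM in Zeb1 WT (mean ± SD, n = 3), a log2 fold change of -2.64 (edgeR adjusted p = 2.97e-09), and Rnf31, the catalytic subunit of the linear ubiquitin complex, fell by 1.90. Of 19 negative regulators, 8 fell and 1 rose in Zeb1 WT (median -0.39), and 6 fell and 2 rose in Zeb1 ∆M (median -0.36). Tnfaip3, which encodes the deubiquitinase A20, fell by 2.26 and 1.85 in the 2 genotypes, and its binding partner Tnip2 by 1.43 and 1.69. Of 23 textbook NF-kB target genes tested, 10 fell and 4 rose in Zeb1 WT (median -0.51), and 11 fell and 3 rose in Zeb1 ∆M (median -0.68). Ptgs2, the inducible cyclooxygenase, fell by 3.79 and 2.51, and the costimulatory receptor Cd40 fell by 2.62 in Zeb1 WT and fell by 3.02 in Zeb1 ∆M. In each list the share that fell exceeded the 18% of all genes in Zeb1 WT and 16.9% in Zeb1 ∆M.

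**Figure D3:**
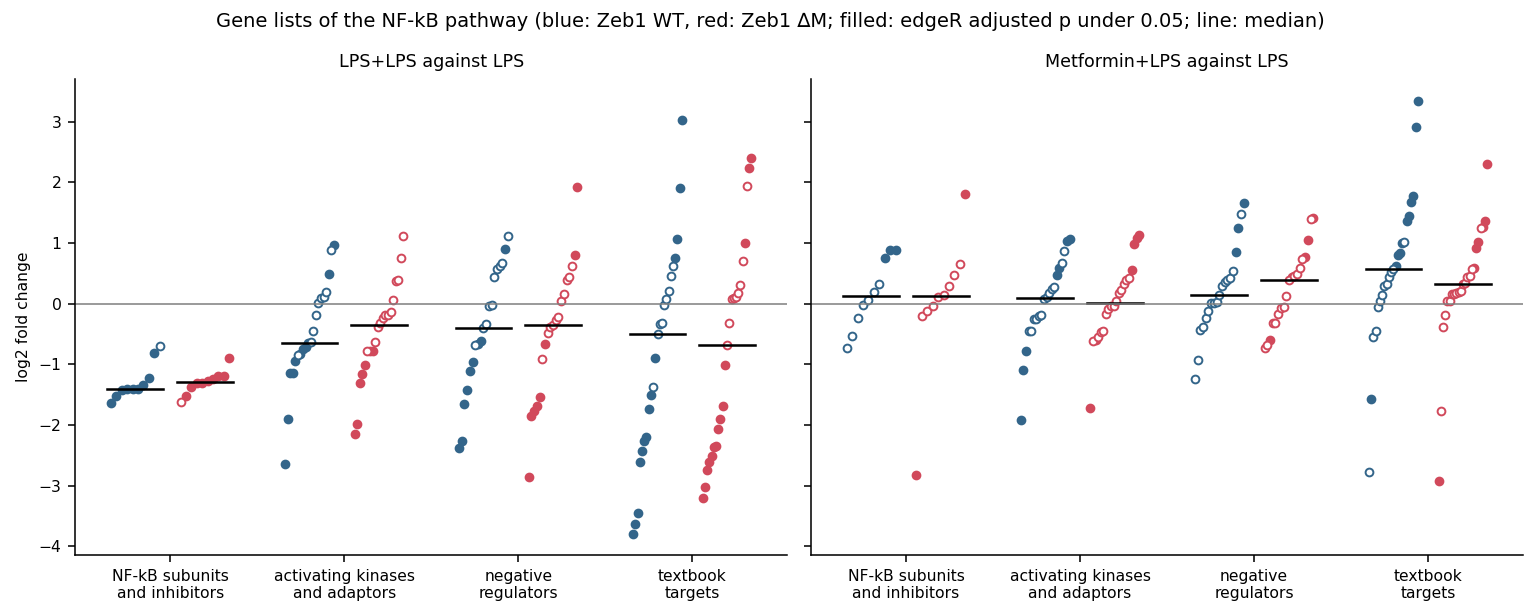
Log2 fold change of every gene of the subunits and inhibitors and of 3 further NF-kB pathway lists, with the median of each list. Each point is 1 gene. The comparisons shown are LPS + LPS against LPS and Metformin + LPS against LPS, in both genotypes. In LPS + LPS against LPS the subunits and inhibitors have the lowest median, -1.41 in Zeb1 WT and -1.29 in Zeb1 ∆M.

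With Metformin given before LPS, Rel was the member that rose in both genotypes, and few others passed the test. In Zeb1 WT, 3 members rose (Nfkb1, Rel and Nfkbia) and none fell, where 13% of all genes rose and 12.3% fell. In Zeb1 ∆M, Rel rose and Bcl3 fell, where 12.6% of all genes rose and 13.6% fell. The medians of the 10 members were 0.12 and 0.13 on the log2 scale. These shares are not far from those of all genes. With library totals alone, which shift the median gene by -0.74 in Zeb1 WT, none of the 3 rises was called there and 5 members were called lower. In that fit 5131 of all 13443 genes were called lower there and 466 higher. Cell type markers differed here too. In Zeb1 WT the sum of monocyte and small peritoneal macrophage markers was 241 to 381 CPM in LPS and 675 to 1326 in Metformin + LPS, that of dendritic cell markers 471 to 825 and 102 to 110.4, and that of B cell markers 444 to 691 and 106 to 184. In Zeb1 ∆M the monocyte sum was 83.5 to 151 and 163 to 244 CPM, and the B cell sum 111 to 168 and 27.5 to 38.5. The part of these shifts in the values below was not tested.

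Rel stood at 129, 149 and 150.0 CPM in the Zeb1 WT Metformin + LPS libraries, all above the 71.2, 86.1 and 96.7 of LPS (0.75, 95% confidence interval 0.37 to 1.13, edgeR adjusted p = 0.0053). In Zeb1 ∆M it stood at 211, 189 and 132 CPM against 49.0, 56.2 and 47.2 (1.80, 95% confidence interval 1.42 to 2.19, edgeR adjusted p = 1.52e-05). The rise was 1.68-fold in Zeb1 WT and 3.49-fold in Zeb1 ∆M. The difference between the genotypes in this rise was 1.05, 95% confidence interval 0.52 to 1.58, edgeR adjusted p = 0.09, so it did not pass in edgeR, but it did with DESeq2 (1.06, adjusted p = 0.00977) and without replicate 3 of Zeb1 ∆M Metformin + LPS in edgeR (1.22, adjusted p = 0.0412). Nfkb1 stood at 296, 116 and 199 CPM in Zeb1 WT Metformin + LPS (0.89, 95% confidence interval 0.34 to 1.44, edgeR adjusted p = 0.0178). These libraries overlapped those of LPS, and the call was lost without replicate 1 of the Metformin + LPS group (0.55, edgeR adjusted p = 0.126) and without replicate 1 or 3 of the LPS group (0.83 and 0.89, edgeR adjusted p = 0.0687 and 0.0511). In Zeb1 ∆M, Nfkb1 stood at 119, 116 and 165 CPM, above all LPS libraries (0.66, 95% confidence interval 0.12 to 1.21, edgeR adjusted p = 0.0683).

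Nfkbia rose with Metformin in Zeb1 WT, and its change did not pass in Zeb1 ∆M. In Zeb1 WT its level was 4669.9, 3688 and 8961 CPM, each above every LPS library (0.88, 95% confidence interval 0.29 to 1.46, edgeR adjusted p = 0.0284), and replicate 3 was the highest of all 18 libraries. Without that library the change was 0.44 (edgeR adjusted p = 0.185), and the call was also lost without replicate 1 or 3 of the LPS group (0.79 and 0.83, edgeR adjusted p = 0.102 and 0.0881). In Zeb1 ∆M the level was 2334, 2269.8 and 2969.9 CPM, within the range of LPS (-0.04, 95% confidence interval -0.63 to 0.54, edgeR adjusted p = 0.93). A test of the difference between the genotypes gave -0.92, 95% confidence interval -1.75 to -0.09, edgeR adjusted p = 0.317 and did not pass. Nfkbib, Nfkbie and Nfkbiz did not pass in either genotype, with Nfkbie at 83.2, 140.5 and 159 CPM in Zeb1 WT, below all LPS libraries (-0.54, 95% confidence interval -0.99 to -0.09, edgeR adjusted p = 0.0707). Nfkbie was called lower there without replicate 3 of Metformin + LPS (-0.70, edgeR adjusted p = 0.0417). Rela, Relb, Nfkb2, Nfkbib and Nfkbiz had log2 fold changes from -0.23 to 0.47 in the 2 genotypes. Their 95% intervals ran from -0.70 to 1.04, so these data do not show that their levels were equal.

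Among the upstream kinases and adaptors, 4 of 20 rose and 3 fell with Metformin in Zeb1 WT, where 13% of all genes rose and 12.3% fell, and 4 rose and 2 fell in Zeb1 ∆M, where 12.6% and 13.6% did. Tab2 and Map3k7, which together encode parts of the TAK1 complex, rose by 1.06 and 1.03 in Zeb1 WT and by 1.08 and 1.13 in Zeb1 ∆M, and Map3k14, the kinase of the non-canonical path, fell by 1.91 and 1.72. Of the 19 negative regulators, 3 rose and none fell in Zeb1 WT and 4 rose and 1 fell in Zeb1 ∆M, among them Tnip3, which rose by 1.66 and 1.42. Of the 23 textbook targets, 10 rose and 1 fell in Zeb1 WT (median 0.57) and 6 rose and 1 fell in Zeb1 ∆M (median 0.33). Il12b, which encodes the p40 chain of interleukin 12, rose by 1.77 and 2.31. The survival genes Bcl2a1a and Bcl2a1d, near-identical copies between which reads may be split, rose by 2.91 and 3.35 in Zeb1 WT. The share of mitochondrial counts was 1.19 to 2.79% in the Metformin + LPS libraries and 0.513 to 1.12% in all others.

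Against LPS + LPS, the Metformin + LPS samples held more of the same 9 members in both genotypes. The rises numbered 9 of 10, where 22.7% of all genes rose in Zeb1 WT and 22.1% in Zeb1 ∆M. This comparison shares its samples with the 2 above and adds no independent support. In Zeb1 WT the rises ranged from 0.58 for Relb to 2.30 for Nfkb1, and in Zeb1 ∆M from 1.03 for Relb to 2.69 for Rel. Relb was the weakest in Zeb1 WT (edgeR adjusted p = 0.0368), where its groups overlapped at 104, 101 and 123 against 68.9, 101 and 48.6 CPM, and the call was lost without replicate 1 or 3 of either group. With library totals alone only 4 members were called in Zeb1 WT, with Relb reversed to -0.82, as the median gene then fell by 1.51, and in Zeb1 ∆M 7 were called higher and Bcl3 lower, without Relb (0.22, edgeR adjusted p = 0.443) and Nfkbia (0.34, edgeR adjusted p = 0.152). Over all 13443 genes that fit called 965 higher and 8751 lower in Zeb1 WT, and 1318 and 6652 in Zeb1 ∆M. Relative to the median gene, all 10 members stood higher in Zeb1 WT under both scalings, by 0.12 to 2.46 with TMM factors and 0.11 to 2.39 with library totals. Bcl3 was the lowest under both. With TMM factors its log2 fold change was -0.04 (edgeR adjusted p = 0.969) with all libraries. Without replicate 1 of Zeb1 WT LPS + LPS, that of Bcl3 was 1.13 (edgeR adjusted p = 0.208).

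Between genotypes, Nfkbia after Metformin was the single called member, and it was lower in Zeb1 ∆M. In LPS and in LPS + LPS none of the 10 passed in edgeR, where 1.15% and 0.677% of all genes did. At an unadjusted p under 0.05 there were 2 members in LPS and 1 in LPS + LPS, and 1844 and 1575 of all 13443 genes. DESeq2 called 1 member (Rel) in LPS and none in LPS + LPS. Over all genes DESeq2 called 107 higher and 398 lower in LPS, and 176 and 206 in LPS + LPS. In Metformin + LPS 1 member was lower and none higher, where 4.61% of all genes were lower and 1.26% higher. With library totals alone, Rel, Rela and Nfkbie were called higher there and Nfkbia was not called (-0.51, edgeR adjusted p = 0.0657), as the median gene then stood at 0.60. Over all 13443 genes that fit called 3274 higher and 324 lower. Without replicate 2 of Zeb1 WT Metformin + LPS, Nfkb1 was also called lower in edgeR (-0.91, adjusted p = 0.0210), against -0.61 with all libraries. No member passed in the test of whether the genotypes responded differently to the second LPS dose or to Metformin, where 0% and 0.156% of all genes passed with edgeR. At an unadjusted p under 0.05 there were 0 and 3 members, and 939 and 1832 of all 13443 genes. DESeq2 called 0 and 1 members. Over all genes DESeq2 called 72 higher and 2 lower for the second LPS dose, and 128 and 172 for Metformin.

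**Figure D4:**
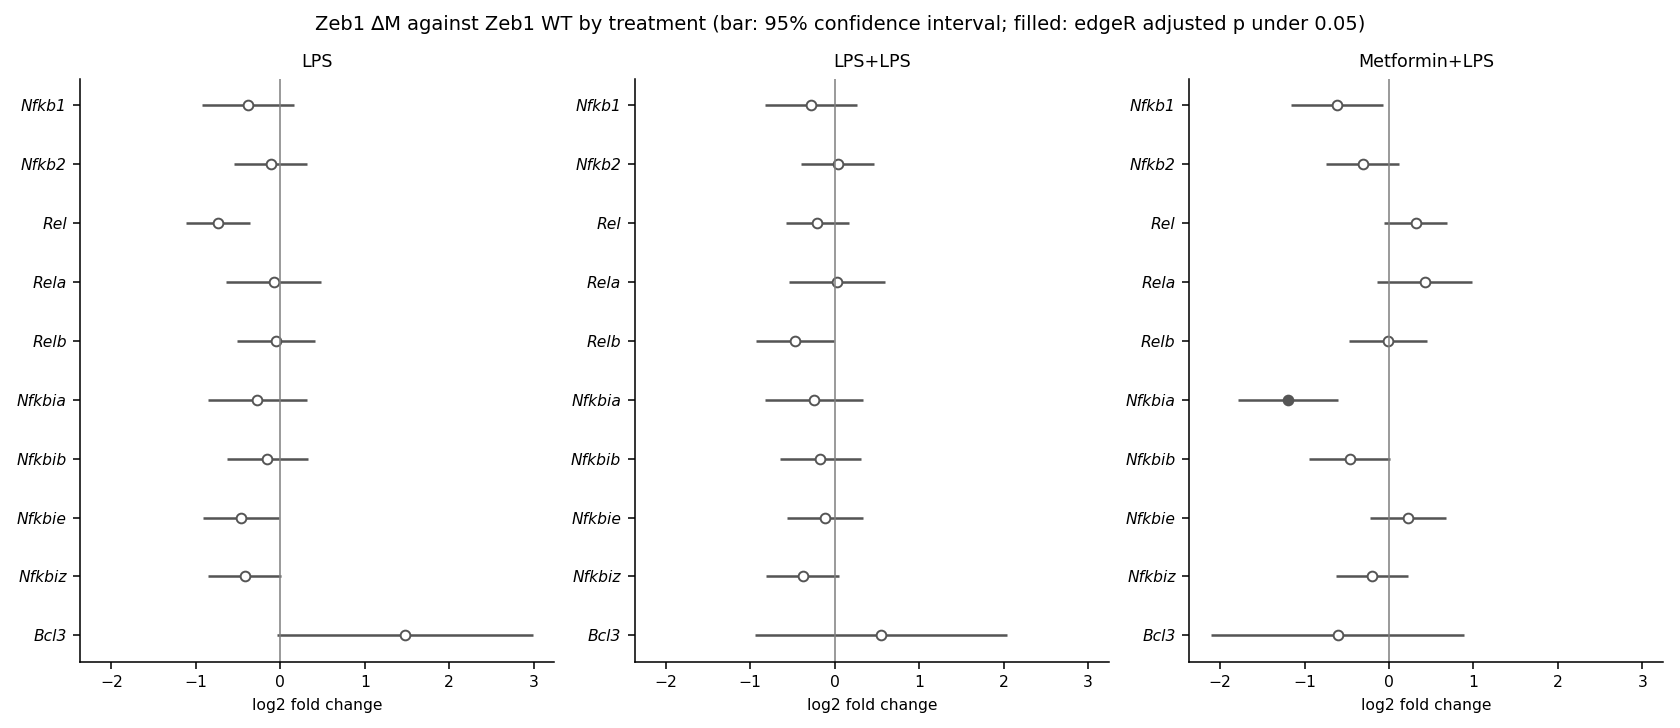
Log2 fold change of each gene in Zeb1 ∆M against Zeb1 WT in each treatment, with 95% confidence intervals; filled points have an edgeR adjusted p under 0.05. Nfkbia in Metformin + LPS (-1.19) is the single filled point; with library totals in place of TMM it is not called, and Nfkb1, Nfkb2, Relb, Nfkbib and Nfkbiz change sign in that treatment, as Rela and Relb do in LPS.

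Nfkbia stood at 4669.9, 3688 and 8961 CPM in the Zeb1 WT and 2334, 2269.8 and 2969.9 CPM in the Zeb1 ∆M Metformin + LPS libraries (-1.19, 95% confidence interval -1.78 to -0.60, edgeR adjusted p = 0.0167). No Zeb1 ∆M library reached the lowest Zeb1 WT library. The call did not hold when replicate 3 of Zeb1 WT was left out (-0.74, edgeR adjusted p = 0.0815), nor when replicate 1 or 2 of Zeb1 ∆M was (-1.16 and -1.14, edgeR adjusted p = 0.0783 and 0.0791). General macrophage markers, among them Lyz2 at the locus that carries Cre, summed to 43008 to 102721 CPM in these Zeb1 WT libraries and 17941 to 24952 in Zeb1 ∆M. Lyz2 alone ran from 6892 to 92572 CPM over the 18 libraries. Monocyte and small peritoneal macrophage markers summed to 675 to 1326 and 163 to 244, and B cell markers to 106 to 184 and 27.5 to 38.5. The sums of large peritoneal macrophage markers overlapped, at 13892 to 19634.5 CPM in Zeb1 WT and 14277 to 15423 in Zeb1 ∆M. The part of these markers in the difference of Nfkbia was not tested.

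Rel in LPS came closest to the threshold among the other members. It stood at 71.2, 86.1 and 96.7 CPM in Zeb1 WT and 49.0, 56.2 and 47.2 in Zeb1 ∆M, with no overlap (-0.74, 95% confidence interval -1.11 to -0.36, edgeR adjusted p = 0.0525). It was called lower with DESeq2 (-0.78, adjusted p = 0.0032), with DESeq2 size factors in edgeR (adjusted p = 0.0386), and in edgeR without replicate 1 of Zeb1 WT LPS + LPS (-0.73, adjusted p = 0.049). Without the count filter it was also called (edgeR adjusted p = 0.0453). Over the libraries of these groups left out in turn the value stayed between -0.85 and -0.63, and none of those fits called it (edgeR adjusted p = 0.0607 to 0.189). Nor was it called in edgeR with library totals (adjusted p = 0.217), only the groups compared (0.0721) or the replicate block (0.0566). In Metformin + LPS the direction was the opposite, 0.32, 95% confidence interval -0.06 to 0.69, edgeR adjusted p = 0.339, with overlapping groups, and in LPS + LPS the value was -0.20. In LPS, B cell markers summed to 444 to 691 CPM in Zeb1 WT and 111 to 168 in Zeb1 ∆M, and the part of this in the difference of Rel was not tested.

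Several members separated the LPS groups without passing the test. Nfkb1 (101, 118 and 110.2 against 93.1, 75.1 and 84.7 CPM, edgeR adjusted p = 0.552), Nfkbie (172, 176 and 209 against 139.9, 113 and 151 CPM, edgeR adjusted p = 0.343) and Nfkbiz (547, 647 and 543 against 327, 532 and 437 CPM, edgeR adjusted p = 0.376) were lower in each Zeb1 ∆M library. Together with Rel, 4 members did not overlap in the lower direction, and 10.8% of all genes did not either. Nfkb2, Rela, Relb, Nfkbia and Nfkbib overlapped in LPS, with log2 fold changes from -0.27 to -0.05. Of the textbook targets, Il1b (-1.92, edgeR adjusted p = 0.0119) and Traf1 (-1.23, edgeR adjusted p = 0.0247) were lower in Zeb1 ∆M in LPS, 2 were lower in LPS + LPS, where 0.677% of all genes passed in either direction, and 9 of 23 in Metformin + LPS, where 4.61% of all genes were lower and the list had a median of -0.68. None of the 19 negative regulators passed in any treatment, and among kinases and adaptors only Birc2 did, higher in Zeb1 ∆M in LPS + LPS (0.82, edgeR adjusted p = 0.0233).

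Bcl3 differed from the rest of the family in that its libraries split within groups. In Zeb1 WT LPS the level was 19.2, 40.4 and 268 CPM, a 13.9-fold range, whereas no other member exceeded 2.83-fold within any group. In Zeb1 ∆M LPS it was uniformly high at 271, 323 and 317 CPM. In LPS + LPS it was 143, 44.7 and 15.2 CPM in Zeb1 WT and 129.6, 85.3 and 80.6 in Zeb1 ∆M, and in Metformin + LPS 49.4, 66.4 and 81.1 and 41.8, 54.2 and 33.1. Replicate 3 of Zeb1 WT LPS thus lay just below the Zeb1 ∆M LPS libraries, and its Zeb1 level was 7.21 CPM, against 6.41 and 6.69 in the other libraries of its group. Replicate 1 of Zeb1 WT LPS + LPS lay above every Zeb1 ∆M LPS + LPS library in Bcl3, and its Zeb1 level of 0.912 CPM was within the 0.738 to 0.926 of those libraries. Replicates 2 and 3 of its own group had Zeb1 at 2.52 and 1.07 CPM. Their Zeb1 counts were 66 and 34, against 25 in replicate 1, so these levels rest on few reads.

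The called difference of Bcl3 was its fall with Metformin in Zeb1 ∆M (-2.82, 95% confidence interval -4.41 to -1.23, edgeR adjusted p = 0.0114), in which no group overlapped and neither of the 2 split libraries enters the groups compared. In Zeb1 WT the same comparison gave -0.73, 95% confidence interval -2.23 to 0.77, edgeR adjusted p = 0.488 with all libraries and 1.13 (edgeR adjusted p = 0.192) without replicate 3 of LPS, so its direction rests on that library. The genotype difference in LPS was 1.48, 95% confidence interval -0.04 to 2.99, edgeR adjusted p = 0.382 with all libraries and 3.35 (edgeR adjusted p = 0.0168) without it. Every Zeb1 ∆M library was higher in that comparison, as was the case for 10.1% of all genes. The change from LPS to LPS + LPS in Zeb1 WT was -0.69 with all libraries, 1.18 (edgeR adjusted p = 0.139) without replicate 3 of LPS and -1.87 (edgeR adjusted p = 0.0577) without replicate 1 of LPS + LPS. For LPS + LPS the genotype difference was 0.54 with all libraries and 1.73 when replicate 1 of Zeb1 WT was left out (edgeR adjusted p = 0.23).

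The split was not particular to Bcl3. Of 6646 genes with a mean log2 CPM of at least 3, 179 (2.69%) had replicate 3 of Zeb1 WT LPS above both others by more than 1 on the log2 scale, 234 (3.52%) had this for replicate 1 of Zeb1 WT LPS + LPS, and 98 (1.47%) for both, while 3 genes had both libraries below the others. This limit was chosen after the values of Bcl3 were seen. The genes whose levels lay closest to Bcl3 over the 18 libraries share the split through the way they were chosen, and are given as a description. Foxp4, a forkhead transcription factor, stood at 2.91, 5.78 and 26.5 CPM in Zeb1 WT LPS and 16.9, 28.0 and 27.4 in Zeb1 ∆M LPS. Dcun1d5, a cofactor of cullin neddylation, stood at 15.5, 16.6 and 66.9 CPM and at 83.3, 67.7 and 74.4 in the same groups. In both genes replicate 3 was the highest library of Zeb1 WT LPS.

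**Figure D5:**
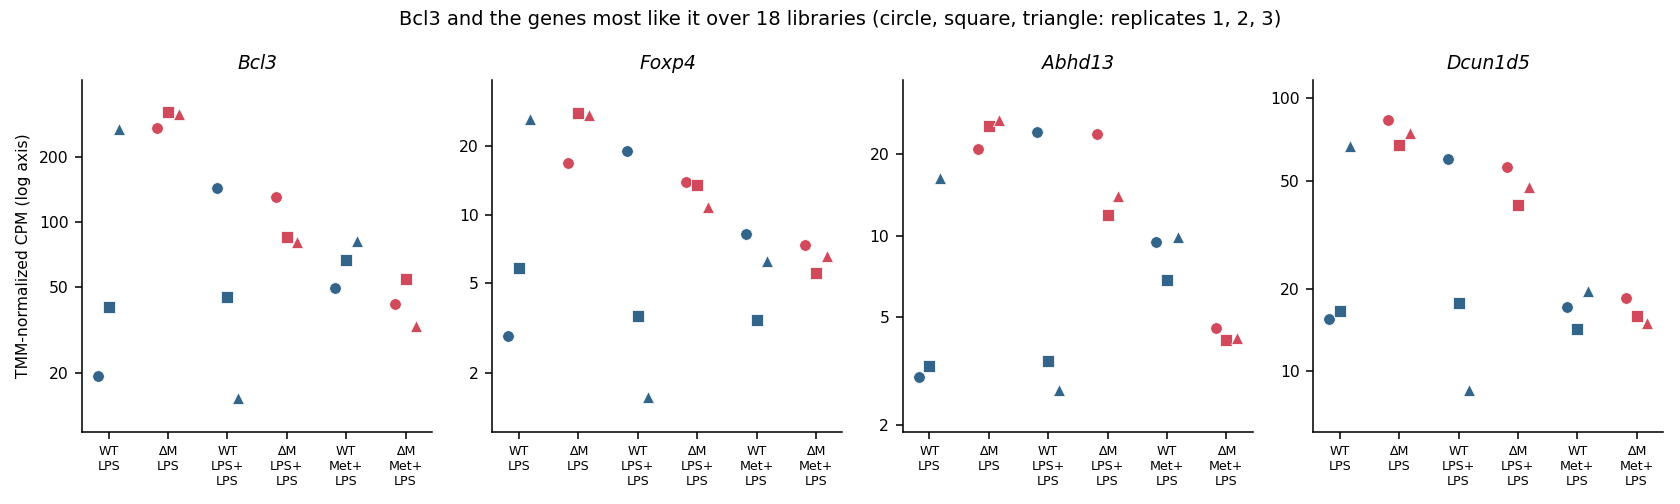
Level of Bcl3 and of Foxp4, Abhd13 and Dcun1d5, the genes most like it, in each of the 18 libraries, as TMM-normalized CPM on a log axis, by group. Replicate 3 of Zeb1 WT LPS and replicate 1 of Zeb1 WT LPS + LPS lie above the other libraries of their groups in every gene shown.

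Likeness to each member was measured as the root mean square difference of centred log2 CPM over the 18 libraries, among 6440 genes outside the family, and it describes levels only. The closest gene was Klra2 for Nfkbiz (0.18), Rcl1 for Nfkb2 (0.18), Slfn2 for Nfkbia (0.18), Ccnl1 for Relb (0.19), Hnrnph2 for Nfkbib (0.21), Nub1 for Rela (0.22), Snw1 for Nfkbie (0.23), Jak2 for Nfkb1 (0.23) and Cflar for Rel (0.25). For Bcl3 the closest gene was Foxp4, at 0.52. This distance is not scaled to a gene's own spread, so it tends to be larger for members that vary more. The standard deviation of log2 CPM over the libraries was 1.33 for Bcl3, and 0.54 (Relb) to 1.06 (Rel) for the other members. Within the family, Nfkb2 and Nfkbiz lay closest to each other (0.24), and for each of the other 9 members Bcl3 was the farthest, at 1.31 to 1.82. The members also share libraries, depth and scaling, which can bring levels together.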

How the data were processed

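RNA of sorted mouse peritoneal macrophages was sequenced with a stranded mRNA kit, 3 libraries in each of 6 groups. The authors deposited 1 table of whole-number gene counts for 55573 genes and 18 libraries, not normalized. The submitters' notes name STAR, RSEM, DESeq2 and GRCm38, without versions. All columns were matched to samples by name, and 0 columns of other samples were present. Libraries were not near-identical copies of each other, as at least 95.3% of genes compared differed in count between any 2 of a group.

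Genes passing edgeR's filterByExpr (minimum count 10) were fitted in 1 quasi-likelihood model with 6 group means and TMM factors, and p-values were adjusted by Benjamini-Hochberg over 13443 genes in each of 11 comparisons. Calls used an adjusted p under 0.05. Levels are TMM-normalized CPM (counts scaled to library size), and 95% intervals come from the fitted standard errors. Depth bounds precision, and n = 3 pools a group bounds it further: p-values measure the spread between pools of 2 to 3 mice. The test was checked on simulated data. The software was edgeR 4.0.16 with limma 3.58.1, and DESeq2 1.42.0, in R 4.3.3.

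The 10 genes and all lists were chosen with earlier results of these data known. All 10 are named in each comparison, with up to 4 genes of smallest adjusted p from each of the 3 other pathway lists and the 1 gene most like each member (3 for Bcl3, chosen after its values were seen). Markers of 10 cell types were summed per library. Gene positions are from GENCODE M21 (55094 of 55573 IDs matched) and promoters from RefSeq. The study's source data sheets hold replicates 2 and 3 of Zeb1 WT LPS + LPS but not replicate 1, while its methods state that no data were excluded, so all 18 libraries were used and fits without that library serve as an alternative, added after the data were seen like the fit with library totals alone. The other alternatives were each library left out, a fit of only the groups compared, a block for the replicate number, the table without a count filter, size factors of DESeq2 in place of TMM, and its Wald test.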

Additional observations from a re-analysis of the deposited data

How the results depend on the processing

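Of 1510 values of single members under the alternatives, 1373 kept direction and side of the threshold, 73 changed sign without being called in either fit, 30 were no longer past the threshold, 30 came to pass it and 4 reversed, all 4 with library totals alone: Nfkbib (-0.58) and Nfkbiz (-0.66) in Metformin + LPS against LPS, and Relb (-0.82) and Nfkbie (-0.29) in Metformin + LPS against LPS + LPS, all in Zeb1 WT. Of the 73, 49 came from leaving out a library and 15 from library totals, and 2 lay beyond 0.5 in both fits: Bcl3 in LPS + LPS against LPS (1.18) and in Metformin + LPS against LPS (1.13) in Zeb1 WT, without replicate 3 of Zeb1 WT LPS. With library totals the members called became 8 instead of 9 in LPS + LPS against LPS in both genotypes and in Metformin + LPS against LPS + LPS in Zeb1 ∆M, 5 instead of 3 in Metformin + LPS against LPS in Zeb1 WT, 4 instead of 9 against LPS + LPS in Zeb1 WT, 3 instead of 1 between genotypes in Metformin + LPS and 1 instead of 0 in the genotype by Metformin interaction. These counts mix directions. The 5 were called lower, whereas the 3 of the main fit were higher and none of them was kept. The 3 between genotypes (Rel, Rela and Nfkbie) were higher, whereas the 1 (Nfkbia) was lower and was lost. Relb was called lower among the 4, and Bcl3 among the 8 against LPS + LPS in Zeb1 ∆M. Relative to the median gene, the members ran from -1.71 to -0.77 in LPS + LPS against LPS in Zeb1 WT with TMM factors and from -1.70 to -0.80 with library totals. Between genotypes in LPS, 1 member was called instead of 0 with DESeq2 size factors, with the DESeq2 Wald test and without replicate 1 of Zeb1 WT LPS + LPS, and 2 without the count filter. In the genotype by Metformin interaction DESeq2 called 1 and the fit without the filter 2. Over all genes these fits called 128 and 198 higher and 172 and 403 lower. With only the groups compared, 4 members instead of 2 were called in Metformin + LPS against LPS in Zeb1 ∆M and 0 instead of 1 between genotypes in Metformin + LPS. Leaving out each library in turn gave 8 to 9 called members in LPS + LPS against LPS in Zeb1 WT and 9 in Zeb1 ∆M, 1 to 3 and 2 in Metformin + LPS against LPS, 8 to 9 and 9 against LPS + LPS, 0 to 1, 0 and 0 to 2 between genotypes in LPS, LPS + LPS and Metformin + LPS, and 0 and 0 to 1 in the 2 interactions. The cause of these shifts was not tested.

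The replicate block gave the same number of called members as the fit without it in all 11 comparisons (9, 9, 3, 2, 9, 9, 0, 0, 1, 0 and 0). Same-numbered libraries had correlations of their deviations from -0.28 to 0.29, over 0.1 in 9 of 27 pairs. Of 54 comparisons of a library, 25 placed it closest to its own number. This ran from 1 of 6 in Metformin + LPS against LPS in Zeb1 ∆M to 6 of 6 in Metformin + LPS against LPS + LPS in Zeb1 WT. The numbers are not treated as pairs in the main fit.

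Over all genes, the calls higher and lower were 2504 and 2421 in LPS + LPS against LPS in Zeb1 WT with TMM factors and 5337 and 1176 with library totals, 2125 and 2272 then 4353 and 944 in Zeb1 ∆M, 1744 and 1648 then 466 and 5131 in Metformin + LPS against LPS in Zeb1 WT, 1693 and 1825 then 930 and 2343 in Zeb1 ∆M, 3047 and 3379 then 965 and 8751 against LPS + LPS in Zeb1 WT, 2970 and 3236 then 1318 and 6652 in Zeb1 ∆M, and 169 and 620 then 3274 and 324 between genotypes in Metformin + LPS. Between genotypes in LPS, 28 and 126 genes became 107 and 398 with DESeq2 and 274 and 464 without the filter. In LPS + LPS, 62 and 29 became 176 and 206, 298 and 342, and 0 and 0 with only those groups fitted, and in Metformin + LPS DESeq2 gave 354 and 1017. In the main fit all 6 groups, with 3 pools each, shared 1 estimate of the spread. Standard errors for the treatment differences of Bcl3 were 0.71 to 0.76 on the log2 scale in that fit. A change of Bcl3 as large as -1.62, in LPS + LPS against LPS in Zeb1 ∆M, did not pass there. With only the groups compared, the same change was called (-1.59, edgeR adjusted p = 0.000241).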
